A study of Mus musculus with 4 samples.

Results

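Among 4918 quality-filtered CD45+ ovarian leukocytes, 191 cells met a transcript gate for double-negative T cells with innate-like genes, and they made up part of 1276 T cells. A cell entered the gate with at least 2 UMIs of the CD3 genes Cd3d, Cd3e and Cd3g together, at most 1 UMI of the B cell genes Cd79a and Ms4a1, no UMI of Cd4, Cd8a, Cd8b1 or the regulatory T cell factor Foxp3, and at least 2 UMIs of Cxcr6, Itga1, Cd226, P2rx7 and Zbtb16 together. A UMI, or unique molecular identifier, stands for 1 captured transcript. The cells were thus chosen by their own UMI counts of these genes, whose values are given below as a description and support nothing. The cells came from female C57BL/6J mice aged 10 to 12 weeks, 5 given gonadotropin and 5 given saline (labelled untreated), whose ovaries were taken 48 h later. The gonadotropin preparation and dose are not given in the sources used here. Each mouse was marked with its own hashtag antibody, and the 5 mice of a treatment were pooled into 1 library, so treatment, pool and library cannot be told apart. The gonadotropin pool gave 103 of the gated cells, among 603 T cells and 2423 leukocytes, and the untreated pool gave 88, among 673 T cells and 2495 leukocytes.

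Innate-like T cells carry a rearranged T cell receptor but, unlike conventional T cells, take up an effector state early in life and respond to cytokines and stress ligands as well as to antigen. Natural killer T (NKT) cells, mucosal-associated invariant T (MAIT) cells and many γδ T cells belong to this class, and a share of them express neither the CD4 nor the CD8 coreceptor. PLZF, encoded by Zbtb16, directs this program in several of these lineages. CXCR6 and the collagen-binding integrin α1 (Itga1) are found on lymphocytes that stay in tissues, CD226 is an activating receptor for nectin-family ligands, and P2RX7 is a receptor for extracellular ATP.

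Gated cells were not shallow: their median was 8324 UMIs and 3000 genes per cell, against 8181.5 UMIs over all T cells. Gated cells of the gonadotropin pool had a median of 8644 UMIs, and those of the untreated pool 8106. Over all cells of a mouse, the summed UMIs ran from 2608262 to 7097779 in the gonadotropin group and from 2559097 to 6500466 in the untreated group. The pools shared 4 cell barcode sequences, 1 of them in a gated cell. Gonadotropin mouse 3 gave only 7 gated cells, under the minimum of 8 set for gene comparisons, which therefore rest on 4 gonadotropin and 5 untreated mice.

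The genes of the gate were unevenly spread over the cells, and their values only describe the choice. A UMI of Cd226 was found in 97.4% of the gated cells, of Cxcr6 in 59.2%, of P2rx7 in 48.2%, of Itga1 in 42.9% and of Zbtb16 in 30.9%. The summed count of these genes had a median of 10 and reached 51. At least 2 UMIs of the genes other than Cd226 were found in 129 cells (67.5%), while 44 cells (23.0%) passed on Cd226 alone. Just inside the threshold, 30 cells had a sum of 2 and 11 a sum of 3, and just outside it 54 otherwise matching cells had a sum of 1 and 112 a sum of 0. Only 1 gated cell had the minimum of 2 CD3 UMIs. Atp8a2, a phospholipid flippase gene given as a further marker and not used by the gate, had a UMI in 23.0% of gated cells, 3.01% of double-negative T cells below the threshold, 7.67% of CD8 T cells over the threshold and 3.21% of NK and ILC1-type cells. B cells, which should lack it, had it in 0.727% at a median depth of 6624 UMIs.

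Being double-negative here rests on missing transcripts. Of the cells that otherwise matched, 57 were left out by exactly 1 UMI of Cd4 and 10 by exactly 1 UMI of Cd8a or Cd8b1. Among all T cells, 691 reached the innate threshold, 180 of them with a Cd4 and 324 with a Cd8a or Cd8b1 UMI. Cd40lg, the CD40 ligand made mainly by CD4 T cells, had a UMI in 38.2% of gated cells, 42.2% of the double-negative cells below the threshold and 3.51% of CD8 T cells over it. How many gated cells are CD4 T cells whose Cd4 transcript was not captured was not tested.

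T cell receptor transcripts divided the gated cells. A Trac UMI, from the α-chain constant gene, without a Trdc UMI was found in 128 cells (67.0%), and a Trdc UMI, from the δ-chain constant gene, without Trac in 26 (13.6%). Both were found in 10 cells (5.24%) and neither in 27 (14.1%). When each cell was thinned to 2000 UMIs these shares were 42.9% Trac only, 15.2% Trdc only, 1.05% both and 40.8% neither, so the absence of a constant gene is partly a matter of depth. A Trdc UMI by itself is no lineage call, since NK cells transcribe this locus and 31.1% of NK and ILC1-type cells had one. Trac was found in 8.84% of those cells.

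Transcripts of the γ-chain constant genes were frequent. Tcrg-C4 had a UMI in 38.7% of gated cells, against 9.04% below the threshold, 4.15% of CD8 T cells and 6.43% of NK and ILC1-type cells. Tcrg-C2 was found in 33.0% of gated cells and in 7.23%, 7.03% and 0% of these sets, and Tcrg-C1 in 29.8% against 2.41%, 5.11% and 0.602%. At least 1 of the γ constant genes was seen in 110 gated cells (57.6%), more cells than had Trdc. Among the variable segments, Trgv2 was found in 70 gated cells (36.6%), in 11 of the cells below the threshold (6.63%), in 22 CD8 T cells (7.03%) and in no NK or ILC1-type cell. Tcrg-V1 followed in 27 gated cells (14.1%).

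Segments of the invariant receptors gave few UMIs or none. The NKT cell segment Trav11 was found in 4 gated cells (2.09%) and its duplicate Trav11d in 0 of 191, and the MAIT cell segment Trav1 was also found in 0 of 191. A count of 0 allows up to 1.57% of cells with a UMI and sets no limit on cells that use the segment. Trbv13-2, a β segment used by both lineages but also by other T cells, was found in 13 (6.81%). A 3′ library reads the variable segments at the far end of the transcript poorly, so these shares are minimum values.

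Among cytokine transcripts, Ifng and Il4 were detected and Il17a was not. Ifng, the main type 1 cytokine, was found in 45 gated cells (23.6%, exact 95% interval 17.7% to 30.2%). Il4, the type 2 cytokine that NKT cells release early, was found in 21 (11%, interval 6.94% to 16.3%), in no cell of the 3 comparison sets and in 0.043% of B cells. Gata3, the type 2 transcription factor, was found in 98 (51.3%). Against the double-negative cells below the threshold its log2 fold change was 0.47. Il17a was found in 0 of 191 cells, which allows up to 1.57%, although Il23r, the IL-23 receptor of type 17 cells, was present in 7.85%. These intervals and limits cover counting error only.

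The gated cells were divided into 4 descriptive classes by Klrb1c and Il23r, which are outside the gate, and by the gate gene Cd226. Klrb1c, which encodes the NK1.1 antigen, had a UMI in 87 cells, and Il23r without Klrb1c in 15. A further 32 cells had neither and reached the threshold on Cd226 alone, and 57 had none of these features. No cell had both Klrb1c and Il23r: Il23r was found in 0 of 87 Klrb1c cells, which allows up to 3.45%, and in 15 of 104 cells without Klrb1c (14.4%, exact 95% interval 8.30% to 22.7%). The median depth was 8850 UMIs in the Klrb1c class, 9813 in the Il23r class, 7284.5 in the Cd226-only class and 8165 in the rest. The classes were cut after the values were seen, so no test between them is given, and the cells within a class share mice and libraries.

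The Klrb1c class carried type 1 and NK receptor transcripts. Tbx21, the type 1 lineage factor T-bet, had a UMI in 67 of 87 Klrb1c cells (77.0%, interval 66.8% to 85.4%) and in 32 of 104 others (30.8%, interval 22.1% to 40.6%). Nkg7, a granule protein gene, was found in 100% of the class, Klrd1, the CD94 chain of NK receptors, in 86.2%, and Xcl1, a chemokine that attracts cross-presenting dendritic cells, in 75.9%. Ccl5 was found in 79 of 87 cells, Il12rb2 of the IL-12 receptor in 62.1%, and Ifng in 40.2%. Itga1 was found in 65.5% of this class and in 6.67% of the Il23r class. Il4 was found in 12 Klrb1c cells and 9 of the remaining 57, and in none of the Il23r or Cd226-only cells. Every mouse but gonadotropin mouse 3 had Klrb1c cells, from 4 to 19 per mouse.

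The Il23r class carried several transcripts known from type 17 cells, without Il17a, and Tbx21 in 5 of its 15 cells. Rora and Tmem176b, both known in type 17 cells, had a UMI in all 15 cells (100%), and so had Il18r1, Cxcr6 and Ramp1, a chain of the CGRP receptor. Il1r1, the IL-1 receptor, was found in 93.3% of the class, in no Klrb1c cell and in no Cd226-only cell. Maf was found in 93.3%, Zbtb16 in 86.7%, Il2ra in 86.7% and Il17re, an IL-17C receptor chain, in 53.3%. The γδ type 17 genes Blk and Cd163l1 were found in 7 and 6 of the 15 cells. Xcl1 and Klrd1 were found in none of them, and Nkg7 in 6.67%. A Trac UMI was present in 8 of the 15 and a Trdc UMI in 7. They were spread thinly over the mice, with 0 to 3 cells per mouse.

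The 32 cells that passed on Cd226 alone and had no Klrb1c or Il23r UMI carried transcripts of naive and recirculating T cells. Another 12 cells that passed on Cd226 alone had a Klrb1c UMI and are counted in the Klrb1c class. Klf2 and Lef1 each had a UMI in 96.9% of the 32 cells, Themis in 90.6% and S1pr1, the receptor for leaving tissue, in 90.6%. Ccr7, the lymph node homing receptor, was found in 19 of the 32 (59.4%), in 2 of 87 Klrb1c cells (2.30%) and in 2 of 15 Il23r cells (13.3%). Over all gated cells it was found in 37 (19.4%), so part of the remaining class had it too and Ccr7 was not confined to these 32 cells. Tbx21 was found in 9.38% of the Cd226-only cells and Xcl1 in 6.25%. In these 32 cells the genes outside the gate go against the innate-like name, and the count of calls against CD8 T cells and the Trac share below are also given with Cd226 left out of the sum.

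**Figure D1:**
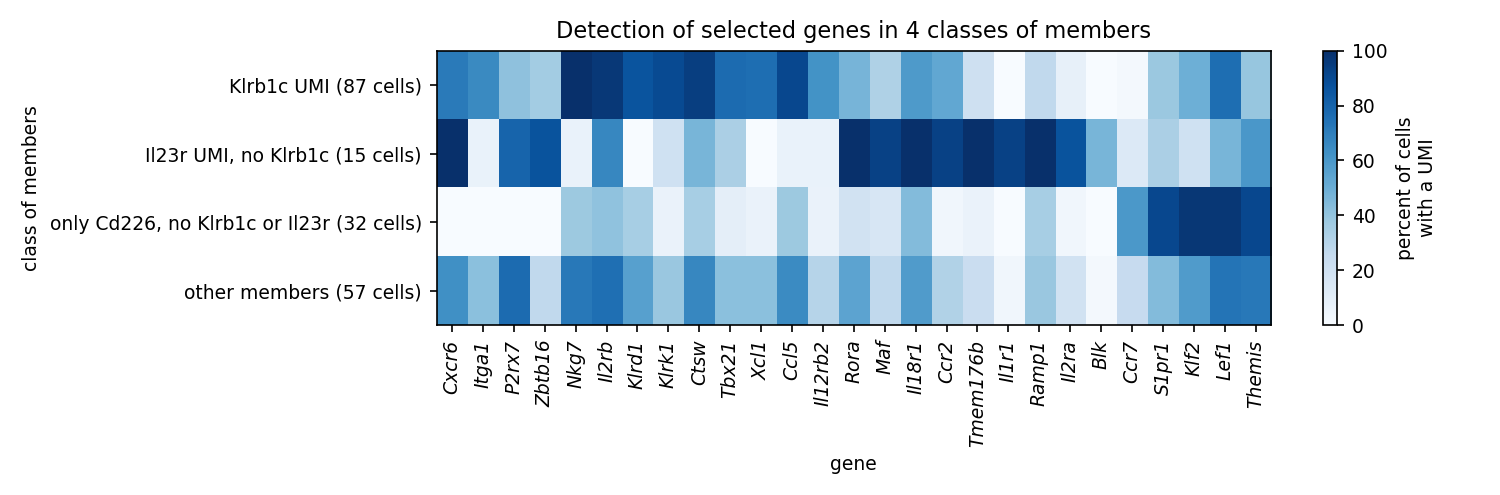
Percent of gated cells (members) with at least 1 UMI of each gene (columns), in the 4 classes (lines of cells), from white at 0 to dark blue at 100. Nkg7, Klrd1 and Xcl1 are darkest in the Klrb1c class, Tmem176b and Il1r1 in the Il23r class, and Klf2, Lef1 and S1pr1 in the Cd226-only class.

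The gated cells were set beside double-negative T cells that met every other condition but had an innate sum of 0 or 1 (166 cells). This is the contrast of the gate itself, so its values are a description. Levels are CPM, the count of a gene scaled to a common library size, from summed UMIs per mouse, and differences are log2 fold changes with the mouse as a block, from 9 mice. With the gate genes removed, 573 of 2561 genes (22.4%) had an adjusted p under 0.05 in edgeR's quasi-likelihood test with Benjamini-Hochberg adjustment, 270 higher (10.5%) and 303 lower (11.8%), and nothing is read from that count. The median over all genes was 0.01.

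Fgl2, a fibrinogen-like immune regulator, stood at 190 ± 80.3 CPM (SD, n = 9 mice) in gated cells and 9.47 ± 17.9 below the threshold, a log2 difference of 4.44 (SE 0.36). By mouse, gated cells had 276, 290, 130 and 125 CPM in gonadotropin mice 1, 2, 4 and 5 and 134, 303, 102, 208 and 142 in untreated mice 1 to 5, while the cells below the threshold had between 0 and 54.5. The rule for naming genes by their difference asks for the same direction in every mouse, so every mouse being higher follows from it. The sets did not overlap. The calcium-binding S100 genes followed, S100a4 at 387 ± 181 against 20.6 ± 30.5 CPM and S100a6 at 924 ± 304 against 96.5 ± 82.9. Rora differed by 2.81 (SE 0.28), the sialyltransferase gene St6galnac3 by 2.60 (SE 0.25), Plac8 by 2.53 (SE 0.34), Ly6c2 by 2.49 (SE 0.25) and the inhibitory NK receptor gene Klrc1 by 2.41 (SE 0.41). Id2, an inhibitor of E proteins that innate and effector lymphocytes share, stood at 684 ± 247 against 156 ± 95.9 CPM, and Cxcr3, a type 1 homing receptor, at 134 ± 17.5 against 31.0 ± 30.6.

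Naive genes lay on the other side. Ccr7 stood at 44.5 ± 26.0 CPM in gated cells and 258 ± 105 below the threshold, a log2 difference of -2.56 (SE 0.21). It was lower in all 9 mice, which the naming rule requires. Lef1, a factor of naive T cells, stood at 453 ± 89.4 against 1238 ± 224 and Klf2 at 280 ± 126 against 822 ± 189, both lower in every mouse. Of the other genes with the largest negative differences, Il6ra, a chain of the IL-6 receptor, differed by -2.07 (SE 0.31), Itga6 by -1.82 (SE 0.21) and St6gal1 by -1.58 (SE 0.19). All 10 tested naive and recirculating genes were lower, with a median of -1.21, and all 8 tested type 1 effector genes were higher, with a median of 1.40. The α-chain constant gene Trac was 246 ± 67.4 against 279 ± 62.8 CPM, and Trdc 210 ± 152 against 114 ± 144 CPM, higher in 6 of 9 mice.

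Promoters are shown for a pair of the genes with the largest positive differences, because each carries several matches to motifs of factors found in these cells. The sequences are from RefSeq on GRCm38.p6, 250 bases before to 50 after the start of the gene, with matches to the RUNX core TGTGGT or the T-box core TCACACC, on either strand, in capitals and the rest in lower case. The S100a6 window is chr3:90612644-90612943 on the plus strand, with 3 RUNX matches. The Plac8 window is chr5:100572156-100572455 on the minus strand, with 1 T-box match at its start, as GGTGTGA, and 3 RUNX matches that do not overlap it.
S100a6: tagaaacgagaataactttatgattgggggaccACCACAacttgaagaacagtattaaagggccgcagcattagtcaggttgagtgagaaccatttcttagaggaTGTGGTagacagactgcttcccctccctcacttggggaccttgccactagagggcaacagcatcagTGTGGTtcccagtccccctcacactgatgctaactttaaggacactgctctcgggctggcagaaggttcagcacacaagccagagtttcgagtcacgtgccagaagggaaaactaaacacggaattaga
Plac8: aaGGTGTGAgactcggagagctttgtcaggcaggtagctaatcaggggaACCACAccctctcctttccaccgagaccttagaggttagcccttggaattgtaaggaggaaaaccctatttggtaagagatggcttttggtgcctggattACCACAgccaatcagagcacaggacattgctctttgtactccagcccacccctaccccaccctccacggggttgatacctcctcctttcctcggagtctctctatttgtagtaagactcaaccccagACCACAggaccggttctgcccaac
Over the 10 genes with the largest positive difference, which have 14 promoter entries, 5 entries in 4 genes held a RUNX match and 2 entries in 2 genes a T-box match. The Ly6c2 entries overlap and hold the same RUNX match, which is thus counted more than once. Among all 32851 promoters of this length, 16.8% held the RUNX and 3.98% the T-box letters. A match of such short letters is a description and not a binding site.

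**Figure D2:**
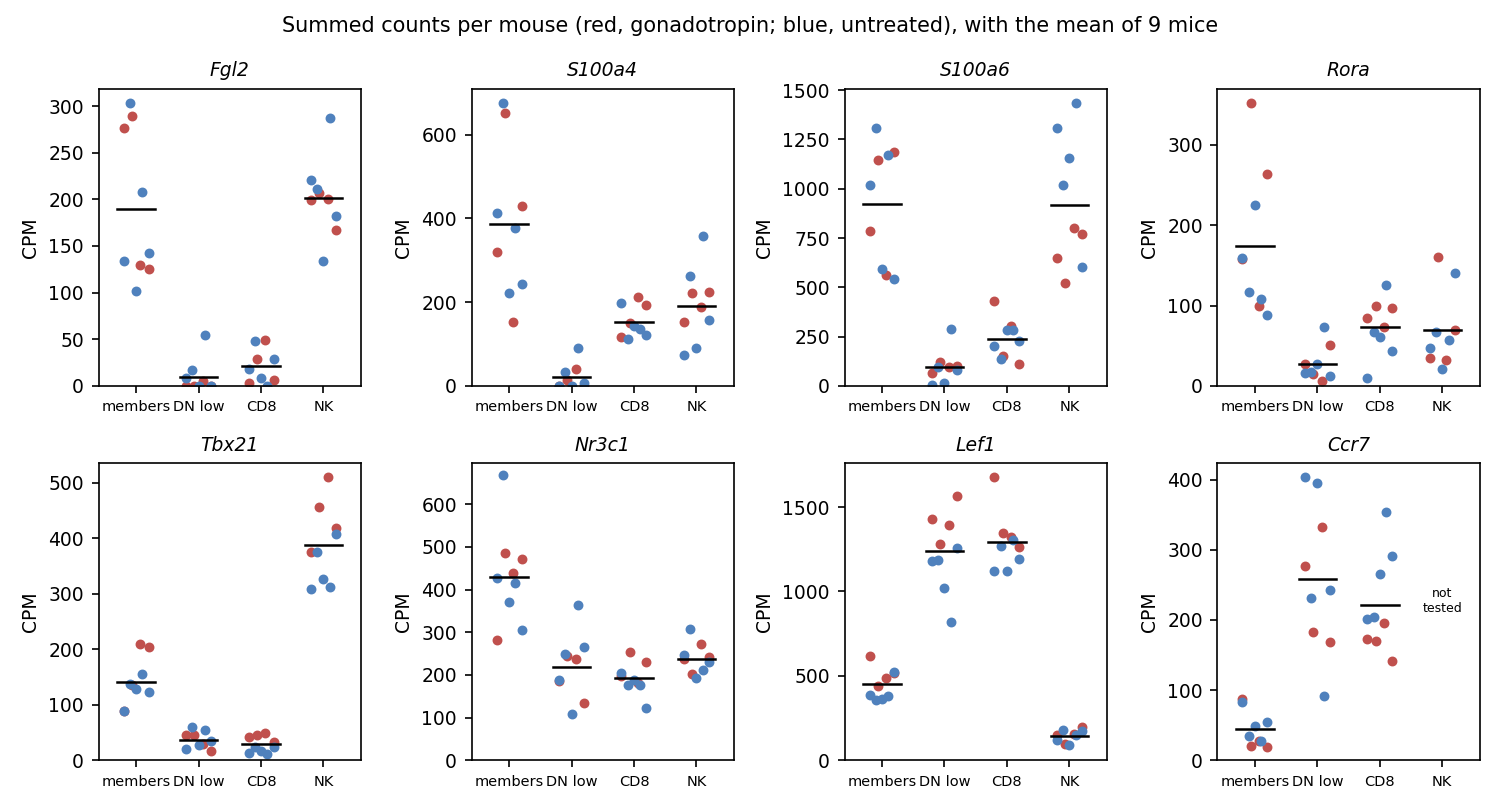
CPM per mouse (points, red for gonadotropin and blue for untreated) of 8 genes in the gated cells (members), double-negative T cells below the threshold (DN low), CD8 T cells over the threshold (CD8) and NK and ILC1-type cells (NK), with the mean of 9 mice as a bar. Fgl2 sits at 102 CPM or more in every gated sample and at 54.5 or less below the threshold, Lef1 shows the opposite order, and Ccr7 was too low in NK and ILC1-type cells to be tested.

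CD8 T cells over the same innate threshold (313 cells) differ from the gated cells by the coreceptor condition, and the comparison asks which other genes differ. The sets contain different kinds of cells, since 179 of the 313 CD8 cells passed on Cd226 alone. Of 3489 genes, 703 (20.1%) had an adjusted p under 0.05 by edgeR's quasi-likelihood test with Benjamini-Hochberg adjustment, 346 higher (9.92%) and 357 lower (10.2%) in the gated cells, with a median over all genes of 0.01. When the innate sum was taken without Cd226, 100 of 2233 genes were called, 38 higher and 62 lower, on 3 gonadotropin and 2 untreated mice. Of the 703 genes, 553 were tested there, 527 of them had the same direction and 96 were called again. The smaller set has fewer cells and mice as well as no Cd226-only cells, and these cannot be told apart.

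Cd40lg rose most against CD8 T cells. Its level was 84.9 ± 31.7 CPM (SD, n = 9 mice) in gated cells and 5.21 ± 6.59 in CD8 cells, a log2 fold change of 3.76 (SE 0.37, adjusted p = 3.3e-08, edgeR). The lowest gated sample had 47.2 CPM and the highest CD8 sample 18.4, so the sets did not overlap. Cd40lg is made mainly by CD4 T cells, and the coreceptor condition separates these sets. The part of gated CD4 T cells with no captured Cd4 transcript in this rise was not tested. Xcl1 stood at 236, 221, 307 and 391 CPM in the gated cells of gonadotropin mice 1, 2, 4 and 5 and at 274, 235, 233, 263 and 203 in those of untreated mice 1 to 5. In CD8 cells it ran from 0 to 77.0 CPM, which gave a log2 fold change of 3.09 (SE 0.24, adjusted p = 1.6e-09), and 2.21 without Cd226 in the sum (adjusted p = 0.0018). Pip5k1b, a kinase of phosphoinositide synthesis, rose by 3.50 (SE 0.27, adjusted p = 1.1e-09), and by 3.59 without Cd226 (adjusted p = 0.0018). Klrb1c rose by 3.36 (SE 0.37), Rbpms, an RNA-binding protein gene, by 3.27 (SE 0.31), and Fgl2 by 2.88 (SE 0.28).

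Clnk, a signalling adaptor, and Myo1e, a myosin, rose by 3.25 (SE 0.33) and 2.90 (SE 0.34). Without Cd226 in the sum these were 1.27 (adjusted p = 0.086) and 1.45 (adjusted p = 0.15), so neither was called in the smaller set. Both γδ constant genes that were tested rose, Trdc from 17.5 ± 20.4 to 210 ± 153 CPM and Tcrg-C4 from 9.90 ± 15.1 to 106 ± 31.1. Trac did not differ beyond its spread, at 246 ± 67.2 CPM in gated and 249 ± 37.9 in CD8 cells (log2 -0.01, SE 0.14, adjusted p = 0.99).

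By list, 7 of 8 type 1 effector genes and 8 of 10 NK receptor and adaptor genes rose against CD8 cells and none fell, with medians of 1.5 and 2.36. Klre1 rose from 26.9 ± 26.1 to 205 ± 54.2 CPM, Klrk1, which encodes the NKG2D receptor, from 96.9 ± 86.8 to 440 ± 126, and Tbx21 from 28.2 ± 14.4 to 141 ± 42.7, while Klrd1 at 321 ± 86.8 against 255 ± 40.7 was not called. Of 9 tested transcription factors of innate-like T cells, 6 rose and Bcl11b, a T cell identity factor, fell. Il2rb, the β chain shared by the IL-2 and IL-15 receptors, rose from 117 ± 39.6 to 420 ± 82.3 CPM, and Tnfrsf18, which encodes GITR, from 45.5 ± 22.8 to 137 ± 31.9. Without Cd226 in the sum, 2 of the type 1 and 4 of the NK receptor genes were called.

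Among the genes that the naming rule admits, which leaves out unnamed gene models, Fam241a fell most, at 25 ± 13.9 CPM in gated and 267 ± 52.6 in CD8 cells, followed by Dapl1, known from memory and naive CD8 T cells, at 43.3 ± 40.8 against 415 ± 113. Both were lower in all 9 mice, which the naming rule requires. Rapgef4, a cAMP-activated exchange factor, fell by 2.49 (SE 0.24), Ccr7 by 2.27 (SE 0.21) and the complement regulator gene Cd55 by 1.92 (SE 0.25). Themis, which tunes T cell receptor signals during selection, stood at 417 ± 161 against 1160 ± 142 CPM, a log2 fold change of -1.53 (SE 0.14). Of 10 naive and recirculating genes, 9 fell, 4 of them also without Cd226. All 25 cytosolic ribosomal protein genes on the list fell, with a median of -0.65.

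NK and ILC1-type cells, taken as cells without a CD3 UMI and with at least 2 UMIs of Ncr1 and Klrb1c (498 cells), are innate lymphocytes with no T cell receptor. Of 3652 genes, 1122 (30.7%) were called by edgeR's quasi-likelihood test with Benjamini-Hochberg adjustment, 582 higher (15.9%) and 540 lower (14.8%) in the gated cells, with a median over all genes of -0.02. The CD3 condition separates these sets, so their T cell receptor genes mainly restate it. Trac stood at 272 ± 74.8 against 14.5 ± 6.62 CPM, and the 3 αβ constant genes were all called higher.

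T cell genes other than the receptor genes rose too, and since the CD3 condition divides T from non-T cells, they partly restate it. Bcl11b stood at 342 ± 81.3 CPM (SD, n = 9 mice) against 21.6 ± 18.6, the kinase gene Camk4 at 432 ± 99.7 against 20.1 ± 16.5, and the metalloprotease gene Adam19 at 204 ± 35.8 against 6.37 ± 6.78. Il7r, the IL-7 receptor that supports T cell survival, stood at 855 ± 187 against 73.7 ± 50.3, and the costimulatory receptor genes Icos and Cd28 rose by 3.19 (SE 0.24) and 2.53 (SE 0.19). Cxcr3 rose by 1.98 (SE 0.16) and Maf by 1.40 (SE 0.21). Some genes were near absent on 1 side. Dpp4, a T cell surface peptidase, had 146 UMIs in gated cells and 0 in NK and ILC1-type cells, at least 105-fold higher against a floor of 3 counts over the group. Themis had 711 UMIs against 1.

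Cytotoxic and NK genes were lower in gated cells. NK and ILC1-type cells were chosen on Ncr1 and Klrb1c, so falls of NK and cytotoxic genes partly restate that choice. Gzma, granzyme A, stood at 4.86, 0, 538 and 0 CPM in gonadotropin mice 1, 2, 4 and 5 and at 42.5, 15.1, 64.3, 29.8 and 0 in untreated mice 1 to 5, while NK and ILC1-type cells had from 6462 to 9456. Gonadotropin mouse 4 alone was high among the gated samples. Prf1, perforin, stood at 34.3 ± 18.6 against 1047 ± 148 CPM, Gzmb at 72.4 ± 48.6 against 787 ± 137 and the chemokine gene Ccl3 at 3.58 ± 4.97 against 577 ± 190. Of 12 cytotoxicity genes 9 fell and 1 rose, and of 19 NK receptor and adaptor genes 17 fell and none rose, with medians of -1.53 and -2.52. Serpinb9b had 0 UMIs in gated cells and 282 in NK and ILC1-type cells, at least 43.7-fold lower.

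Some type 1 genes were higher in the gated cells than in CD8 cells and lower than in NK and ILC1-type cells, and others were not. Tbx21 was 155 ± 46.3 CPM in gated against 387 ± 68.0 in NK and ILC1-type cells, a log2 fold change of -1.33 (SE 0.12), although it rose against the CD8 cells. Xcl1 at 290 ± 61.4 against 851 ± 179, Ccl5 at 3148 ± 1277 against 9458 ± 1091 and Nkg7 at 723 ± 137 against 2301 ± 328 fell against NK and ILC1-type cells, and all 3 rose against CD8 cells, Ccl5 by 0.62 (SE 0.21) and Nkg7 by 0.35 (SE 0.11). Cxcr3 was higher in the gated cells than in both sets. Eomes, a T-box factor of NK cells and memory T cells, was 24.8 ± 22.6 against 212 ± 45.7. CPM values differ a little between comparisons because each has its own scaling of the libraries.

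Nr3c1, which encodes the glucocorticoid receptor, was higher in the gated cells than in each of the 3 sets. It rose against CD8 cells from 193 ± 36.5 to 429 ± 114 CPM (log2 1.14, SE 0.12, adjusted p = 9.0e-08 by edgeR) and against NK and ILC1-type cells from 238 ± 35.8 to 474 ± 122 (0.95, SE 0.11, adjusted p = 2.9e-07), and was higher in 9 of 9 mice each time. Against the cells below the threshold it was 429 ± 114 and 219 ± 75.9 CPM. Without Cd226 in the sum the rise against CD8 cells was 1.03 (adjusted p = 0.020). Tsc22d3, a gene that glucocorticoids induce, went the other way against CD8 cells, at 110 ± 52.5 against 212 ± 37.0 CPM (log2 -0.98, SE 0.18), and was lower in 8 of 9 mice. These comparisons share the same gated samples.

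**Figure D3:**
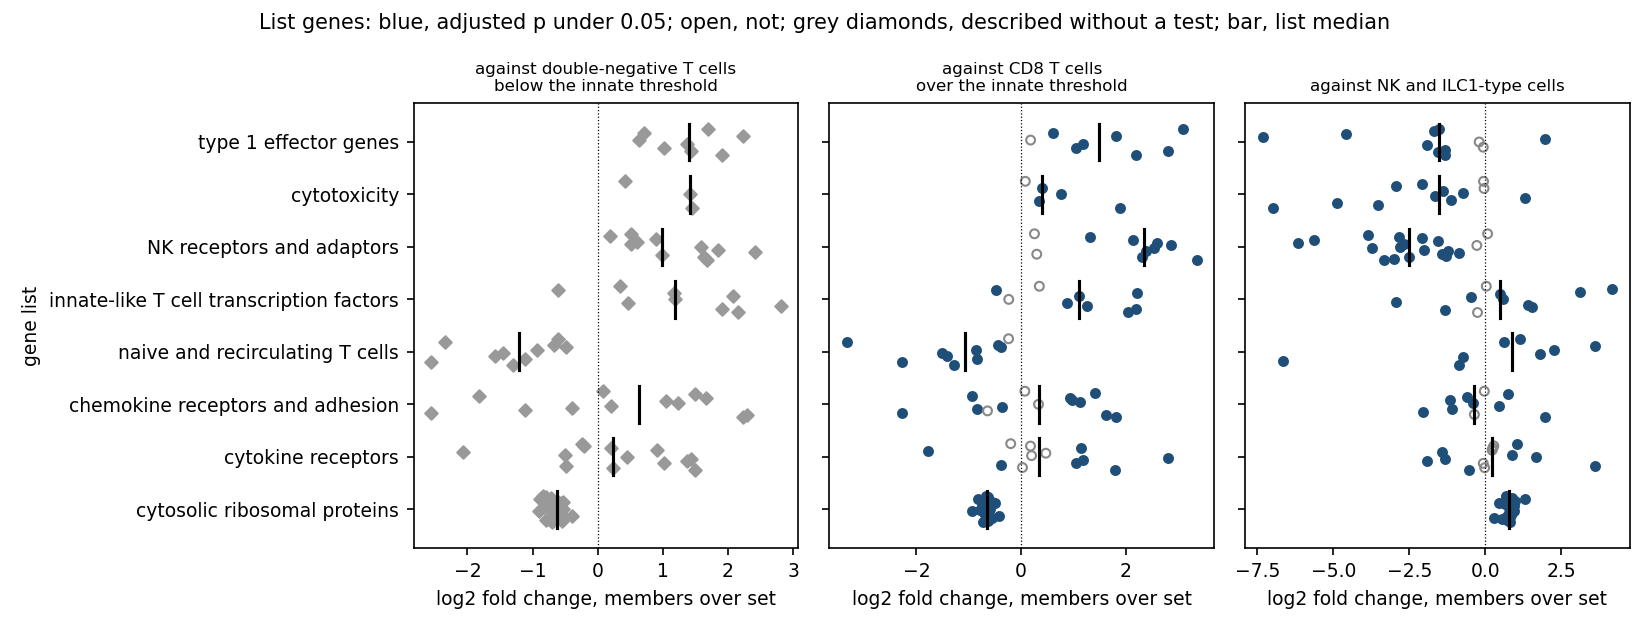
Log2 fold changes of the tested genes of 8 lists, gated cells over each set, with the list median as a bar, blue points for an adjusted p under 0.05 in edgeR, open points for the others, and grey diamonds for the contrast of the gate, described without a test. Type 1 and NK receptor genes lie right of 0 against the T cell sets and mostly left of 0 against NK and ILC1-type cells, and the ribosomal protein genes lie left of 0 against the T cell sets and right of 0 against NK and ILC1-type cells.

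The share of gated cells did not differ between treatments beyond the spread of the mice. They made up 18.6%, 19.1%, 10.0%, 13.8% and 26.2% of T cells in gonadotropin mice 1 to 5 and 9.69%, 12.1%, 21.3%, 21.3% and 9.58% in untreated mice 1 to 5. The groups overlapped, with means of 17.5% ± 6.11 and 14.8% ± 6.03 (SD, n = 5 each; two-sided exact permutation test, p = 0.52, adjusted p = 0.79 over 4 shares). Of all CD45+ cells they were 4.36% ± 1.48 and 4.06% ± 1.76 (exact permutation p = 0.79, adjusted p = 0.79). The exact permutation test of 5 against 5 mice can reach p = 0.0079 at the smallest.

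Receptor usage also overlapped between treatments. A Trdc UMI was found in 29.2%, 4.76%, 0%, 24.1% and 22.7% of gated cells in gonadotropin mice 1 to 5 and in 10.5%, 17.6%, 10.0%, 37.5% and 18.8% in untreated mice 1 to 5. The means were 16.2% ± 12.9 and 18.9% ± 11.1 (n = 5 each; exact permutation p = 0.72, adjusted p = 0.79). A Trac UMI was found in 71.2% ± 12.8 and 76.4% ± 9.47 (exact permutation p = 0.48, adjusted p = 0.79). With Cd226 left out of the sum, which also left 4 gonadotropin mice, these were 66.8% ± 15.3 and 83.0% ± 4.11 (exact permutation p = 0.063, adjusted p = 0.25). Each mouse value rests on 7 to 29 cells, so a single cell moves it by several percentage points.

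**Figure D4:**
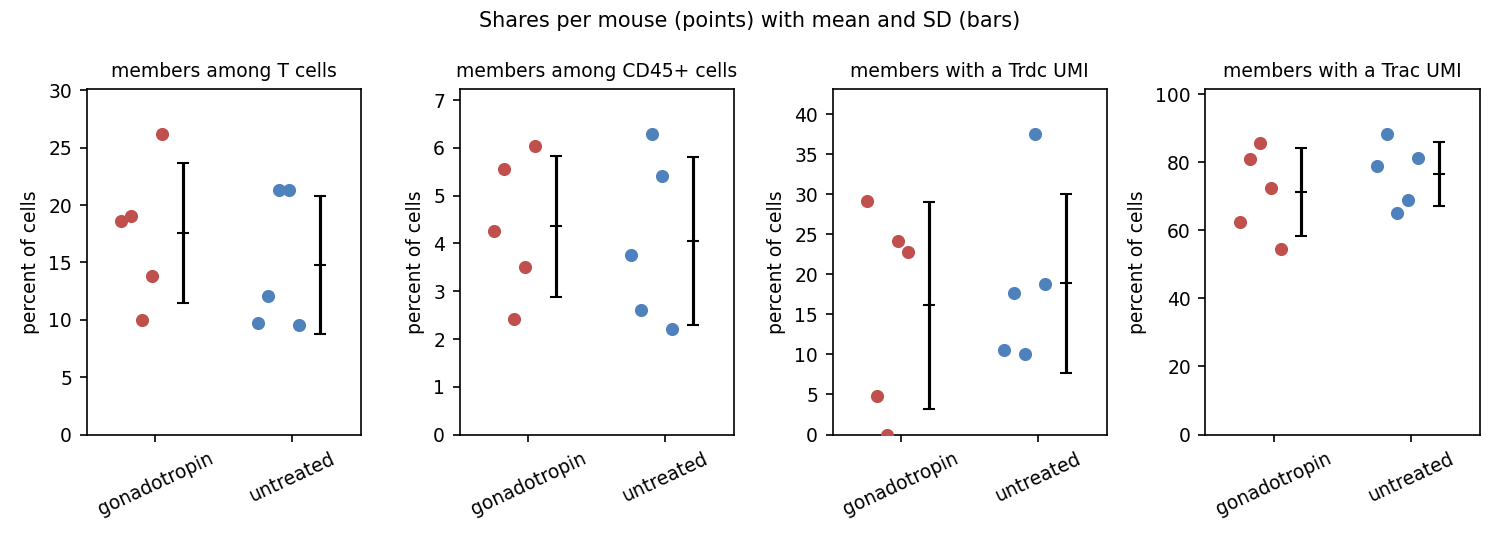
Percent of cells per mouse (points) for gated cells (members) among T cells, among CD45+ cells, and gated cells with a Trdc or a Trac UMI, in gonadotropin (red) and untreated (blue) mice, with mean and SD as bars. In all 4 panels the points of the treatments overlap, and the gated share of T cells spans 10.0% to 26.2% and 9.58% to 21.3%.

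No gene was called between treatments within the gated cells. By edgeR's quasi-likelihood test with Benjamini-Hochberg adjustment, 0 of 3472 genes (0%) had an adjusted p under 0.05 with 4 gonadotropin and 5 untreated mice. 182 genes had an unadjusted p under 0.05, and DESeq2 called 0, with 88 at an unadjusted p under 0.05. The smallest adjusted p among genes was 0.85 in edgeR and 0.12 in DESeq2. The median log2 change over all genes was 0.00. The genes of smallest p are given as values only.

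Psip1, which encodes the chromatin-tethering protein LEDGF, stood at 102, 135, 133 and 107 CPM in gonadotropin mice 1, 2, 4 and 5 and at 243, 186, 248, 185 and 181 in untreated mice 1 to 5 (log2 -0.82, SE 0.20, adjusted p = 0.85, edgeR). Genes of this paragraph were picked for a small p, which favours genes whose groups lie apart, so nothing is read from such a gap. Zmym5, a zinc finger gene, stood at 93.2, 108, 97.0 and 107 CPM against 81.2, 57.2, 42.2, 35.5 and 43.5 (log2 0.96, SE 0.27, adjusted p = 0.92, edgeR). Sik1, a kinase induced by cAMP, was 32.0 ± 10.8 against 89.5 ± 43.9 CPM, and Nr4a2, an orphan receptor induced early by receptor signals, 44.8 ± 27.6 against 130 ± 70.4. For Sik1 and Nr4a2 the lowest untreated mouse lay within the gonadotropin range. Hmgb2, a chromatin protein of dividing cells, was 364 ± 70.1 against 845 ± 702 CPM, where untreated mouse 3 alone had 2044.

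Of the 21 immediate early and activation genes tested, 8 had a log2 change above 0 and 7 had an unadjusted p under 0.05, none after adjustment, with a median of -0.24. Over all 3472 genes, 1753 were above 0 and 182 had an unadjusted p under 0.05. Zfp36, which encodes an mRNA decay factor, had a log2 value of -1.21, Junb of -0.65 and Fos of -0.24, while Fosb had 0.45. Of 13 NK receptor and adaptor genes 12 were above 0, with a median of 0.23, and of 10 type 1 effector genes 7 were above 0, with a median of 0.16. All 4 cell division genes tested and all 4 γδ constant genes were below 0, with medians of -0.50 and -0.43. Some transcripts on the marker lists of other cells were present. Ighm, on the B cell list, ran from 59.5 to 126 CPM in gonadotropin and from 71.0 to 149 in untreated mice. Pecam1, on the endothelium and stroma list, ran from 60.6 to 256 and from 50.7 to 135 CPM. The erythrocyte genes summed to between 15.1 and 75.0 CPM per mouse in gonadotropin and 0 to 14.3 in untreated gated cells, and Hbb-bs, β-globin, had a UMI in 20.4% and 0% of them. The macrophage and monocyte list summed to 205 to 413 and 90.8 to 509 CPM, with Adgre1 at 0 in both groups. Much of that sum was Ccr2 and Cst3, and Ccr2 is also on the chemokine receptor list. Ccr2 ran from 88.9 to 209 CPM in gonadotropin and from 21.7 to 351 in untreated mice. Cst3 ran from 32.6 to 124 and from 65.2 to 129 CPM. The granulosa, theca and luteal list summed to 0 to 4.80 and 0. The part of these transcripts in the treatment values was not tested.

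The treatment response of the gated cells was also compared with that of the other sets, as an interaction of set and treatment. By edgeR with Benjamini-Hochberg adjustment, 0 of 4467 genes (0%) differed between gated and CD8 cells, with 191 at an unadjusted p under 0.05 and a smallest adjusted p of 0.11. Between gated and NK and ILC1-type cells 0 of 4567 (0%) differed, with 193 at an unadjusted p under 0.05 and a smallest adjusted p of 0.23. DESeq2 was not run for the interactions.

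**Figure D5:**
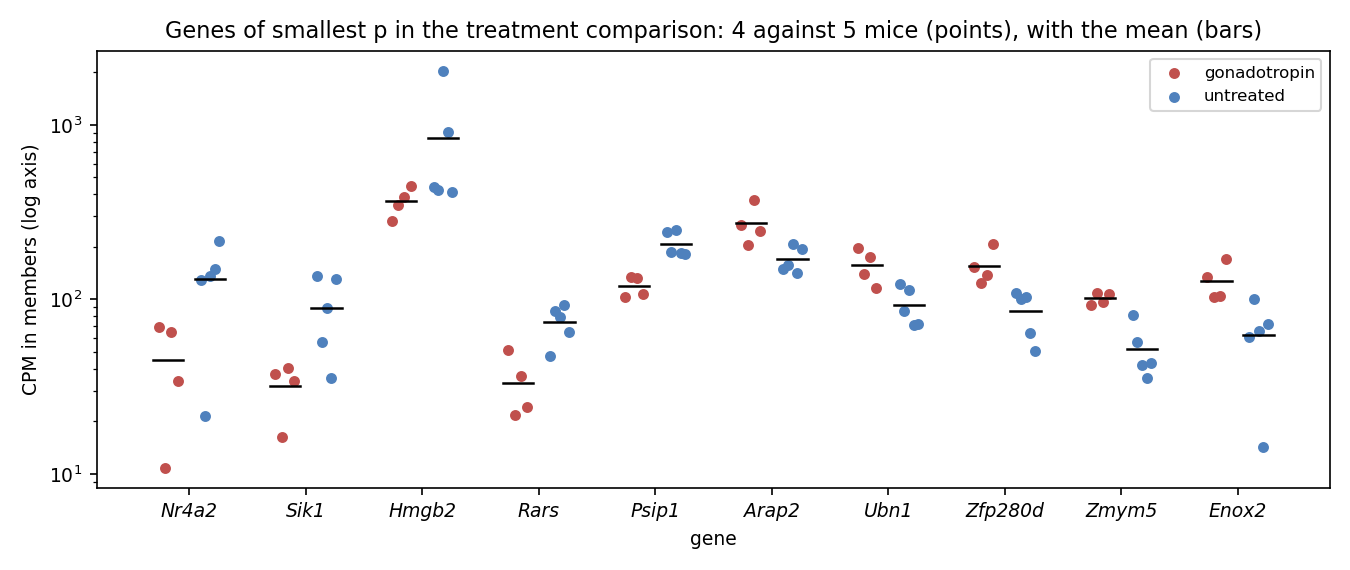
CPM (log axis) in the gated cells of 4 gonadotropin and 5 untreated mice (points) for the 10 genes of smallest p in the treatment comparison, with group means as bars. None passed the adjusted threshold, and untreated mouse 3 lies far above the other points for Hmgb2.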

How the data were processed

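Single-cell RNA was measured in CD45+ ovarian cells of 10 mice. Per the submitters' processing notes, bcl2fastq, Cell Ranger, Seurat and the build mm10 were used, with versions not given in the sources used here. The values are UMI counts per gene and barcode as deposited by the authors, without normalization. They cover 6468 barcodes and 32285 genes, and the lowest barcode holds 501 UMIs. The authors also deposited the mouse and hashtag call of each barcode. Single-hashtag barcodes were kept where they held 500 genes or more and a mitochondrial share of UMIs below 10% (4918 of 5031). The 1348 hashtag doublets and 89 negatives were left out, and no doublet caller was run on the rest.

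UMIs were summed per mouse and cell set, and mice with at least 8 cells were fitted with edgeR 4.0.16 in R 4.3.3 (TMM, filterByExpr, quasi-likelihood, Benjamini-Hochberg over all genes tested). CPM use the TMM-scaled library sizes. Set comparisons carried the mouse as a block, since both sets come from the same animals. Gate genes were removed, and Ncr1 and Klrb1c too for NK and ILC1-type cells. Shares per mouse were tested by exact two-sided permutation (252 assignments), with Benjamini-Hochberg over 4 shares. Intervals are Clopper-Pearson at 95%, and a count of 0 is given a limit of 3 counts. Alternatives were DESeq2 1.42.0, other size factors, filters, thresholds and thinning, and each mouse left out.

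The members and lists were chosen with earlier results of these data known. Genes named were the 10 largest rises and 10 largest falls with adjusted p under 0.05, a mean on the log2 CPM scale of 5 or more and the same direction in every mouse, without gate genes, unnamed gene models, mitochondrial and ribosomal genes, variable segments and Xist. Where fewer than 5 passed between treatments, the 5 smallest p in each direction were taken. List and marker genes could be named besides. Promoters are from RefSeq GRCm38.p6, matched by symbol for 10 of 10 genes.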

Additional observations from a re-analysis of the deposited data

Results flagged for a closer look

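Barcodes that the deposited hashtag calls mark as doublets were left out of every comparison, and some of them met the same gate. In the gonadotropin pool 24 of 693 doublets did so, and in the untreated pool 17 of 655. They draw attention because no control sample sets a level for them. None of the 69 gonadotropin or 20 untreated negative barcodes met the gate. The 4 shares and the 10 genes named between treatments (the 5 of smallest p in each direction), each in both groups, were examined for a single mouse beyond the limit of Dixon's test. None of these 28 groups held one, where chance alone gives about 1 in 20. Gzma was not among them.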

How the results depend on the processing

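The gonadotropin minus untreated difference in the share of CD45+ cells, positive in the report, was -0.57 percentage points with an innate threshold of 1, and that in the Trdc share, negative there, was 9.64 without Cd226 in the sum (added after seeing the data), where gonadotropin mouse 3 also dropped out. Leaving out that mouse alone gave 1.31. The Trac difference was -12.1 with an innate threshold of 3 and -16.2 without Cd226. With each mouse left out in turn, the differences ran from 0.588 to 4.64 points for T cells, -0.162 to 0.859 for CD45+ cells, -5.98 to 1.93 for Trdc and -8.83 to -1.04 for Trac. No share passed its test.

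Leaving out each mouse gave 512 to 572 genes called against the cells below the threshold, 604 to 711 against CD8 and 991 to 1113 against NK and ILC1-type cells, and 0 between treatments each time. All counts against the cells below the threshold belong to the contrast of the gate itself, and nothing is read from them. For the difference of the treatment effect it gave 0 to 5 against CD8 cells, 5 without gonadotropin mouse 4, and 0 to 1 against NK and ILC1-type cells. With no filter on low counts, 82 genes were called between treatments, 1088 against CD8 and 1832 against NK and ILC1-type cells, and 14 and 20 in the differences of the treatment effect. Thinned cells gave 245 calls of 611 genes below the threshold, 36 of 404 against CD8 cells (2 mice per treatment) and 318 of 646 against NK and ILC1-type cells, so genes and mice changed along with depth. The sum without Cd226 gave 866 NK and ILC1-type calls of 3167 genes, 100 CD8 calls, 155 with mice of at least 5 cells, and 1 in the NK and ILC1-type difference either way. With no replicate block 592, 755 and 1153 genes were called, and 1 in the CD8 difference. Hashtag numbers do not pair mice across treatments. The cause of these changes was not tested.

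The 1069 alternative values of named genes cover only settings in which the gene was still tested. Of these, 1062 kept their direction and side of the threshold and none reversed. For genes named between treatments, none of which passed, keeping the side means that they again did not pass. Of the counts of called genes per list, 834 stayed within 1.5 times and 129 moved further. With no filter Enox2, Sik1, Nr4a2 and Hmgb2 passed between treatments, and without Cd226 Clnk and Myo1e no longer passed against CD8 cells. Few cells per mouse limit the depth: the summed UMIs of gated cells ran from 66185 to 253734.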
